A study of Mus musculus with 4 samples.

Results

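Small leucine-rich proteoglycans (SLRPs) are a family of secreted matrix proteins, and 10 genes of the family were read in RNA-seq of mouse cartilage after injury. They were chosen by name and not by level, as decorin (Dcn), biglycan (Bgn), asporin (Aspn), fibromodulin (Fmod), lumican (Lum), Prelp, osteomodulin (Omd), epiphycan (Epyc), osteoglycin (Ogn) and chondroadherin (Chad). Each of the 10 symbols matched 1 gene of the 24532 in the deposited gene table. All 10 were above 0 in at least 1 library, and 9 were above 0 in every library, the exception being Epyc.

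Libraries were made from dissected cartilage of wild type C57BL/6 mice in 4 groups, which were sham and injured cartilage of young mice and sham and injured cartilage of adult mice. Runs of 4 values keep that order. Young mice were 3 weeks old, and the age of the adult mice is 12 weeks in the sample titles, 14 weeks in the age label and 10 weeks in the study's methods. The titles name the injury as DMM surgery, which destabilizes the medial meniscus, whereas the study's methods for these time points describe a full-thickness needle injury of the patellar groove (FTCI) in male mice. Injured cartilage was taken at 3 days, and the label of young sham is 3 days, whereas that of the adult sham library covers 3 to 14 days. In comparisons with adult sham, age or injury cannot be told apart from days after surgery. The titles name sham surgery for the control libraries, whereas the study's methods for RNA call the control mice uninjured. Each library was a single pool, of cartilage from 10 injured or 5 uninjured mice, so that no group has a replicate and neither an error nor a p-value can be given. The levels are fragments of a transcript, scaled to transcript length and to the library's mapped total (FPKM), which allow genes of different length to be compared. Folds are ratios of FPKM, differences are log2 ratios of FPKM + 1, and "rose" and "fell" are used below for a difference of 2-fold or more on the log2 scale. "Within 2-fold" refers to the same log2 scale, so a gene of few FPKM can be within it with a larger ratio of FPKM.

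An SLRP has a core of leucine-rich repeats that binds collagen, and most members carry a glycosaminoglycan chain, which is chondroitin or dermatan sulfate in decorin and biglycan and keratan sulfate in fibromodulin and lumican. In cartilage and tendon they coat collagen fibrils and set fibril diameter and spacing, and several also bind transforming growth factor beta or receptors of the innate immune system. The family is divided into classes by sequence, with decorin, biglycan and asporin in class I, fibromodulin, lumican, Prelp and osteomodulin in class II, epiphycan and osteoglycin in class III, and chondroadherin, which lacks a glycosaminoglycan chain, in class IV.

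Most members lie in 3 groups of neighbours in the mouse genome (RefSeq annotation, GRCm38.p6, the same assembly as the mm10 of the submitters' processing notes). On chromosome 1, Prelp (chr1:133910304-133930102, minus strand) and Fmod (chr1:134037254-134048280, plus strand) are 107.2 kb apart. On chromosome 10, Dcn (chr10:97479500-97518163), Lum (chr10:97565501-97572703), keratocan (Kera) and Epyc (chr10:97644068-97681908) follow each other on the plus strand. On chromosome 13, Ecm2, Aspn (chr13:49544443-49567565), Omd (chr13:49582462-49592612) and Ogn (chr13:49608015-49624501) do the same. No other protein-coding gene lies wholly within a gap between neighbours, although Cenpp overlaps all 4 genes of the chromosome 13 group. Chad (chr11:94565047-94569127) and Bgn (chrX:73483601-73495936) stand alone.

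The 250 bases before the annotated start were searched on both strands for 7 motifs in the 8 members that had an entry in the promoter table. They are shown for Fmod, Prelp and Omd, which were lower in injured cartilage at both ages, and for Chad and Epyc, which had the largest log2 ratios in size between adult and young sham cartilage as deposited. The windows are chr1:134037004-134037253 (plus) for Fmod, chr1:133921402-133921651 (minus) for Prelp, chr13:49582212-49582461 (plus) for Omd, chr11:94564797-94565046 (plus) for Chad and chr10:97643818-97644067 (plus) for Epyc. Each is printed 5′ to 3′ on the strand of its gene, so that the last letter is the base before the start, and capitals mark a motif match. The window of Prelp precedes the start of the transcript listed in the gene table, which lies inside the annotated span of the gene.
Fmod: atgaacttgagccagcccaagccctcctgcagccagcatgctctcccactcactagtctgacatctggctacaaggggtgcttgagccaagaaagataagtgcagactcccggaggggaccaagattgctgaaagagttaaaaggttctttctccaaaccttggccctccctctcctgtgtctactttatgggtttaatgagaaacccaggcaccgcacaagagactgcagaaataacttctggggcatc
Prelp: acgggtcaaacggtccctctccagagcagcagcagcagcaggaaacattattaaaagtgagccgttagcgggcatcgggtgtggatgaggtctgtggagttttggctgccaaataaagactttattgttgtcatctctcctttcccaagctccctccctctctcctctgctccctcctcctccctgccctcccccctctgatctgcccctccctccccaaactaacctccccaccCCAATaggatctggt
Omd: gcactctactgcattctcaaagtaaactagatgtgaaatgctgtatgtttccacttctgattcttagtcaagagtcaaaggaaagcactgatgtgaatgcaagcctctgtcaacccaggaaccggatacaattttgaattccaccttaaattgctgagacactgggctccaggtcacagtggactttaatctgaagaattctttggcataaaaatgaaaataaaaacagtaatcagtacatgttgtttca
Chad: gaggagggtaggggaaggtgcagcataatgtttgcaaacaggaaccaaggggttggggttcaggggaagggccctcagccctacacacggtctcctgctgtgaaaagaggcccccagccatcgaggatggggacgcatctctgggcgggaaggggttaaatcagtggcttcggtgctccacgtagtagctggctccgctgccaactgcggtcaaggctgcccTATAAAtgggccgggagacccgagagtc
Epyc: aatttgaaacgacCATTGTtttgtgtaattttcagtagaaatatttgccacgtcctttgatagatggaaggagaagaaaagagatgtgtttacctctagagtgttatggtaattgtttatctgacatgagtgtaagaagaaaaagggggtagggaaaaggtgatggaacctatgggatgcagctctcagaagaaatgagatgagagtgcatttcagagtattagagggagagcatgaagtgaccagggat

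The window of Chad held a TATA box (TATAAA) from 28 to 23 bases before the start, and 12.4% of the 32851 promoters in the table held these letters anywhere in the same length. Prelp had a CCAAT box (CCAAT) from 15 to 11 bases before its start, against 33.8% of all promoters. Epyc had the SOX core letters (ACAATG) on the reverse strand from 237 to 232 bases before its start, against 10.7%. Epyc had a second entry in the table, whose start is not that of the transcript listed in the gene table, and its window held 2 matches of the same letters, 209 to 204 and 202 to 197 bases before that start. Aspn held the CCAAT box and, like Ogn, the TATA box letters, all of them at least 173 bases before the start. Fmod, Omd and Bgn held none of the 7 motifs. The other motifs searched were the RUNX core (TGTGGT), AP-1 (TGANTCA), the interferon gamma-activated site (TTCNNNGAA) and NF-kB, which 14.0%, 6.75%, 7.02% and 0.356% of all promoters held. Of these, a RUNX core in Ogn was the only match in a member's window. Overlapping matches were each counted, and a match is a run of letters, not a binding site.

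Chad, Bgn and Dcn were among the most abundant transcripts of the tissue. Chad was at 2781 (sham) and 2348 (injured) FPKM in young mice and at 20538 and 8281 FPKM in adult mice, and it ranked 4 of all genes in both adult libraries. Bgn was at 3467, 3248, 2136 and 2616 FPKM, and its highest value was 1.62 times its lowest, the narrowest span of the 9 members with a level above 0 throughout. Dcn was at 1001, 2786, 1393 and 5555 FPKM, and its rank among all genes was 73, 14, 39 and 5.

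The class II members spanned a wide range of levels, from 44.0 FPKM (Prelp, young injured) to 1589.6 FPKM (Fmod, young sham). Fmod was at 1589.6 (sham) and 758 (injured) FPKM in young and at 1057 and 444 FPKM in adult mice. Lum was at 230.0, 1437, 129 and 778 FPKM. Both injured libraries were thus above both sham libraries for Lum and below both for Fmod. Prelp, which has a basic, heparin-binding end, was at 111, 44.0, 462 and 183 FPKM, with both adult libraries above both young ones. Omd, known from mineralized bone matrix, was at 572, 299, 1348 and 426 FPKM.

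Ogn and Epyc form class III, and Aspn was the lowest-expressed class I member. Ogn was at 270.4 (sham) and 269 (injured) FPKM in young and at 151 and 98.7 FPKM in adult mice. Epyc, a proteoglycan first described in epiphyseal cartilage, was at 77.6 and 83.5 FPKM in the young libraries, was listed at 0 for adult sham, and reached 0.339 FPKM with adult injury. Aspn, which binds collagen and carries a run of aspartates, was the lowest member in both young libraries at 3.17 and 6.81 FPKM and reached 9.65 and 12.2 FPKM in the adult ones. The order of the members by level ran from Bgn to Aspn in both young libraries and from Chad to Epyc in both adult ones. With a single library per group, whether neighbours in these orders differ beyond the spread between mice is not known.

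**Figure D1:**
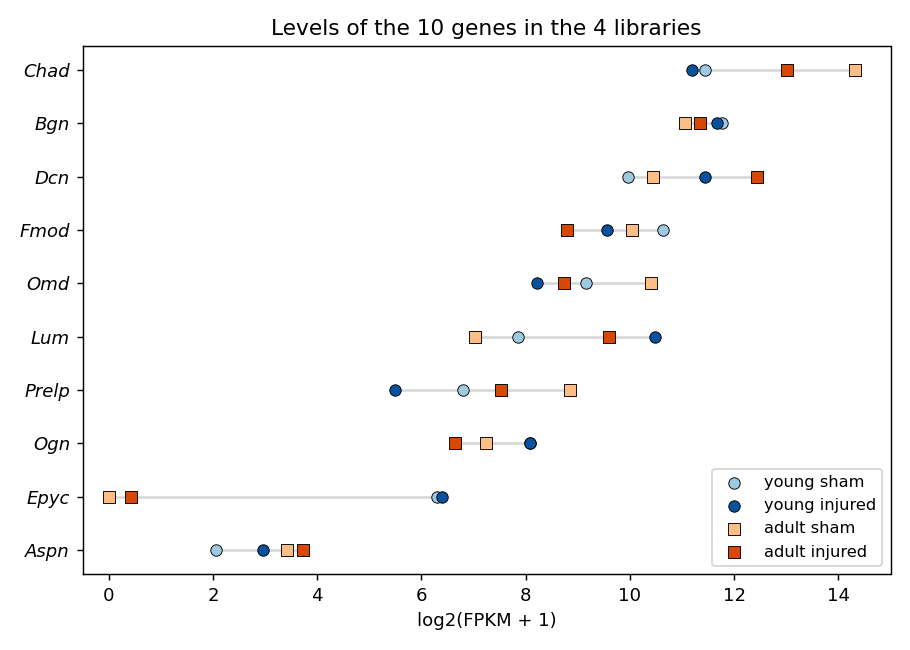
Levels of the 10 genes in each of the 4 libraries as log2(FPKM + 1), with 1 point per library and the line joining the lowest and the highest. Bgn spans the least (2136 to 3467 FPKM), Lum the most among genes above 0 throughout (129 to 1437 FPKM), and Epyc lies near 0 in both adult libraries.

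Injury moved individual members in opposite directions. In young cartilage, 2 members rose (Dcn and Lum), 2 fell (Fmod and Prelp) and 6 stayed within 2-fold. Of the 18181 genes above 0 in a library, 4.57% rose and 1.27% fell in the same comparison. These include genes below 1 FPKM in every library, which cannot reach 2-fold with 1 FPKM added. Among the 13209 genes at 1 FPKM or more in a library, 6.28% rose and 1.74% fell. In adult cartilage the same 2 rose, 4 fell (Fmod, Prelp, Omd and Chad), 3 stayed within 2-fold and Epyc had no ratio, against 6.90% of all genes that rose and 1.46% that fell. The median log2 ratio was -0.05 over the 10 members in young cartilage and -0.61 over the 9 with a ratio in adult cartilage, beside 0.00 and 0.14 over all genes. Counting Epyc by its pseudocount gave -0.16 in adult cartilage.

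Lum, the corneal and tendon keratan sulfate proteoglycan that also presents ligands to innate receptors, had the highest injury ratio of the family. It was 6.25-fold higher in injured than in sham cartilage in young mice (log2 ratio 2.64) and 6.03-fold higher in adult mice (2.58). These log2 ratios were above those of 99.4% and 99.6% of all genes. Dcn, which binds transforming growth factor beta and collagen, was 2.78-fold higher in young (1.48) and 3.99-fold higher in adult injured cartilage (1.99). In bulk tissue, more or fewer cells of a type and more or less RNA per cell cannot be told apart. Beside the higher Lum and Dcn, the summed FPKM of 12 fibroblast and tendon markers was 1397 and 2287 in young sham and injured and 1020 and 2580 in adult sham and injured cartilage, with 3 of 12 markers that rose in young and 4 that rose and 2 that fell in adult cartilage (6 and 1 with TPM). Most of this sum was Col1a1, Col1a2 and Col3a1, at 615, 804 and 772 FPKM in young and 741, 939 and 811 FPKM in adult injured cartilage. Dpt and Clec3b, the 2 that fell as deposited (-1.08 and -1.07), were also lower in young injured cartilage (-0.64 and -0.34), within 2-fold. The sum of 8 macrophage markers was 181 and 1773 in young and 300.4 and 1550 in adult cartilage, and all 8 rose at both ages. None of these markers was listed at 0 in any library, and their part in the levels of Lum and Dcn was not tested.

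Fmod and Prelp fell at both ages. The log2 ratio of Fmod, which carries keratan sulfate and guides collagen cross-linking, was -1.07 in the young and -1.25 in the adult comparison. That of Prelp was -1.31 and -1.33. Fmod was thus 2.098-fold and 2.38-fold lower after injury and Prelp 2.52-fold lower at both ages. With median-of-ratios scaling the adult log2 ratios were larger in size, -1.59 for Fmod and -1.67 for Prelp. Omd fell in adult cartilage (-1.66, 3.17-fold lower) and was 1.92-fold lower in young cartilage (-0.94), just inside the 2-fold limit. With FPKM rescaled to an equal sum in each library (TPM), or with quantile normalization, the young log2 ratio of Omd was past 2-fold, at -1.05 and -1.06. In adult cartilage, 0.391% of all genes had a lower log2 ratio than Omd.

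With FPKM as deposited, the injury ratios of the ages differed most for Chad, an integrin- and collagen II-binding member. Its log2 ratio of -0.24 in young cartilage compares with -1.31 in adult cartilage, where it was 2.48-fold lower after injury. Quantile normalization set this adult difference to 0, because Chad held rank 4 in both adult libraries. Ogn, also called mimecan, was at -0.01 and -0.61, and Bgn at -0.09 and 0.29. Aspn was at 0.91 in young and 0.31 in adult cartilage, and Epyc at 0.10 in young cartilage, with no ratio in adult cartilage because the sham value is listed at 0. None of these ratios passed 2-fold, although with a pseudocount of 0.1 FPKM the adult value of Epyc against the listed 0 did. With median-of-ratios scaling the adult ratio of Bgn turned to -0.05 and that of Aspn to -0.00, and with TPM the young ratio of Epyc turned to -0.01. With a pseudocount of 0.1 FPKM the young ratio of Aspn, a gene of few FPKM, was 1.08 and past 2-fold.

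**Figure D2:**
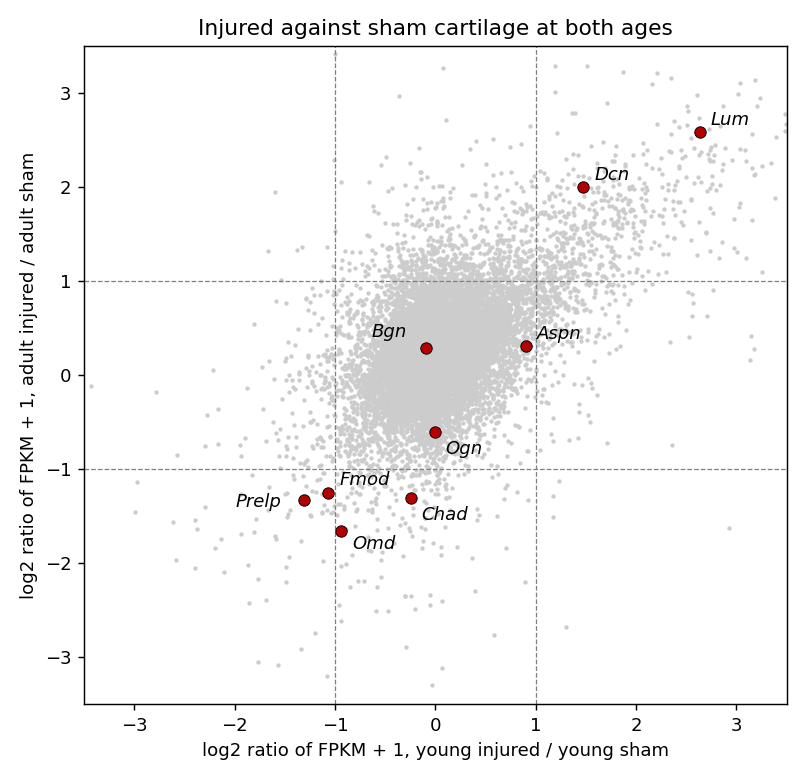
Log2 ratio of FPKM + 1 in injured over sham cartilage, young on the x axis and adult on the y axis, for 9 members (labelled points) and all other genes (grey). Epyc is left out since its adult sham value is listed at 0, genes beyond the range of the axes are not drawn, and dashed lines mark 2-fold. Lum and Dcn lie at the upper right, Fmod, Prelp and Omd at the lower left, and Chad below the line of equal ratios.

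The young minus the adult injury log2 ratio was 1.07 for Chad, 0.72 for Omd, 0.60 for Ogn and for Aspn, 0.18 for Fmod, 0.06 for Lum and 0.02 for Prelp, and it was -0.39 for Bgn and -0.52 for Dcn. No test of these differences is possible with a single pool per group. A change of 1 factor per library moves all of them together, and the differences of Fmod, Lum and Prelp turned to -0.03, -0.16 and -0.20 with TPM. With median-of-ratios scaling they moved the other way, to 0.50, 0.37 and 0.34, and those of Chad, Dcn and Bgn became 1.39, -0.20 and -0.06. The difference of Lum turned to -0.07 and that of Chad to -0.13 with quantile normalization.

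Ratios between members of the same library do not depend on the scale of that library. The pairs given here were chosen after their values were seen. Lum to Fmod, which share a class and compete for collagen, was 0.145 (sham) and 1.90 (injured) in young mice, and 0.122 and 1.75 in adult mice. The ratio was below 1 in both sham and above 1 in both injured libraries, 13.1 times higher with injury in young and 14.4 times higher in adult mice. Dcn to Bgn, the class I pair, was 0.289, 0.858, 0.652 and 2.12, an increase with injury of 2.97 times in young and 3.26 times in adult cartilage. Dcn exceeded Bgn only in the adult injured library.

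Set against collagens of the same library, Lum to Col1a1 was 1.14, 2.34, 0.578 and 1.05, and Lum was therefore also higher with injury relative to the main collagen of fibrous tissue. Dcn to Col1a1 was 4.94, 4.53, 6.24 and 7.50, which differed by 1.20 times or less with injury. Chad to Col2a1, the collagen of hyaline cartilage, was 0.297 in both young libraries, 6.47 (sham) and 2.21 (injured) in adult mice. Fmod to Col2a1 was 0.170, 0.0959, 0.333 and 0.118, lower with injury at both ages.

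**Figure D3:**
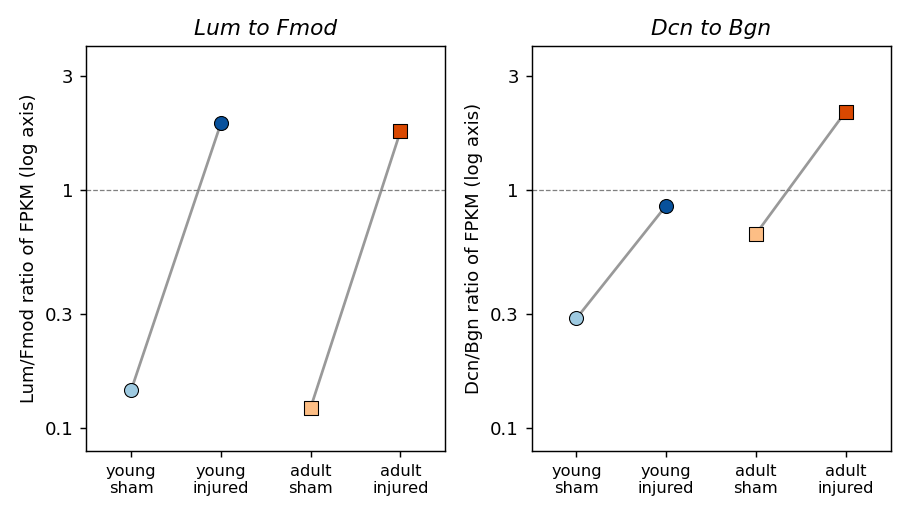
Ratio of FPKM of Lum to Fmod and of Dcn to Bgn within each library, on a log axis, with 1 point per library and a dashed line at 1. Lum to Fmod passes from 0.145 to 1.90 in young and from 0.122 to 1.75 in adult cartilage, and Dcn to Bgn is above 1 only in adult injured cartilage.

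Sham cartilage of the 2 ages, labelled 3 days in young and 3 to 14 days in adult mice, differed in the make-up of the family. In adult against young sham cartilage 4 members rose (Chad, Prelp, Aspn and Omd), 1 was lower (Epyc, listed at 0 in adult sham) and 5 stayed within 2-fold, against 2.66% of all genes that rose and 10.6% that fell. The median log2 ratio was 0.48 over the 9 members with a ratio and -0.15 over all genes, and it was -0.06 with Epyc counted by its pseudocount. Chad was 7.39-fold higher in adult sham cartilage (log2 ratio 2.88), above 99.8% of all genes. Its log2 ratio was 3.32 with median-of-ratios scaling and 1.97 with quantile normalization, where it was below that of Prelp (2.26). Prelp was 4.17-fold higher (2.05), Aspn 3.05-fold higher (1.35) and Omd 2.36-fold higher (1.24). The ratio of Aspn stayed within 2-fold with a pseudocount of 5 FPKM (0.84). Within 2-fold were Dcn (0.48), Fmod (-0.59), Bgn (-0.70), Lum (-0.83) and Ogn (-0.84).

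Epyc went from 77.6 FPKM to a listed 0 between young and adult sham cartilage, and no fold is given against that value. If the step between the lowest values of a library is a single fragment, the adult injured value of 0.339 FPKM is about 15.1 fragments. Matn1 and Matn3, the cartilage matrilins with the lowest log2 ratios of the chondrocyte marker list, were at 1661 and 392 FPKM in young sham. They were at 2.65 and 2.30 FPKM in adult sham cartilage. Of the 10 chondrocyte markers found in the table, 7 fell and 1 rose in adult against young sham cartilage, with sums of 16119 and 11228 FPKM, and all 10 were at 1 FPKM or more in each library. Comp was the 1 that rose, from 1324 to 7203 FPKM, and it made up most of the adult sum. Acan (-0.92) and Sox9 (-0.43) stayed within 2-fold. Of 10 osteoblast and osteocyte markers, 7 rose and none fell, and their sums were 633 and 5652 FPKM. Ibsp, a bone sialoprotein gene of that list, was at 369 and 4136 FPKM. Chad and Omd are known from bone as well as from cartilage, and the part of bone cells in their adult levels was not tested.

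In injured cartilage, young against adult, 2 members rose (Epyc and Ogn), 2 fell (Prelp and Chad) and 6 stayed within 2-fold, against 3.09% of all genes that rose and 1.80% that fell. The median was -0.10 for the members and 0.04 over all genes. Ogn was 2.72-fold higher in young injured cartilage (log2 ratio 1.44). Prelp was 4.16-fold lower (-2.03) and Chad 3.53-fold lower (-1.82). Epyc was at 83.5 against 0.339 FPKM (5.98), and this log2 ratio was 7.57 with a pseudocount of 0.1 FPKM, 4.05 with 5 FPKM and 6.52 with TPM. Dcn, at -0.995, was just within 2-fold and was past it with TPM (-1.18), median-of-ratios scaling (-1.11) and quantile normalization (-1.20). Lum (0.88), Fmod (0.77), Bgn (0.31), Omd (-0.51) and Aspn (-0.76) were within 2-fold. Of the cell type markers in this comparison, 7 of 10 of osteoblasts and osteocytes fell and none rose (sums of 932 and 5610 FPKM), and 6 of 10 of chondrocytes rose and 1 fell (13960.5 and 9869 FPKM), the 6 being 4 with TPM. Their part in the values of Chad and Epyc was not tested. The comparisons share libraries, as adult sham enters both the adult injury and the sham ratio, and their values are therefore not independent.

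Added together, the 10 members made up 2.05% (sham) and 2.11% (injured) of all FPKM in young mice and 5.41% and 3.91% in adult mice. Without Chad the shares were 1.49, 1.67, 1.33 and 2.15%, lowest in adult sham and highest in adult injured cartilage. Dcn and Lum together made up 12.2% of the members' sum in young sham and 37.4% in young injured cartilage, and 5.59% and 34.4% in adult sham and injured cartilage. Fmod, Prelp and Omd together went from 22.5% to 9.75% in young and from 10.5% to 5.72% in adult cartilage. Bgn held 34.3% and 28.8% in the young libraries and 7.85% and 14.2% in the adult ones. Chad held 27.5% and 20.8% in young sham and injured cartilage, and 75.4% and 45.0% in adult sham and injured cartilage.

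**Figure D4:**
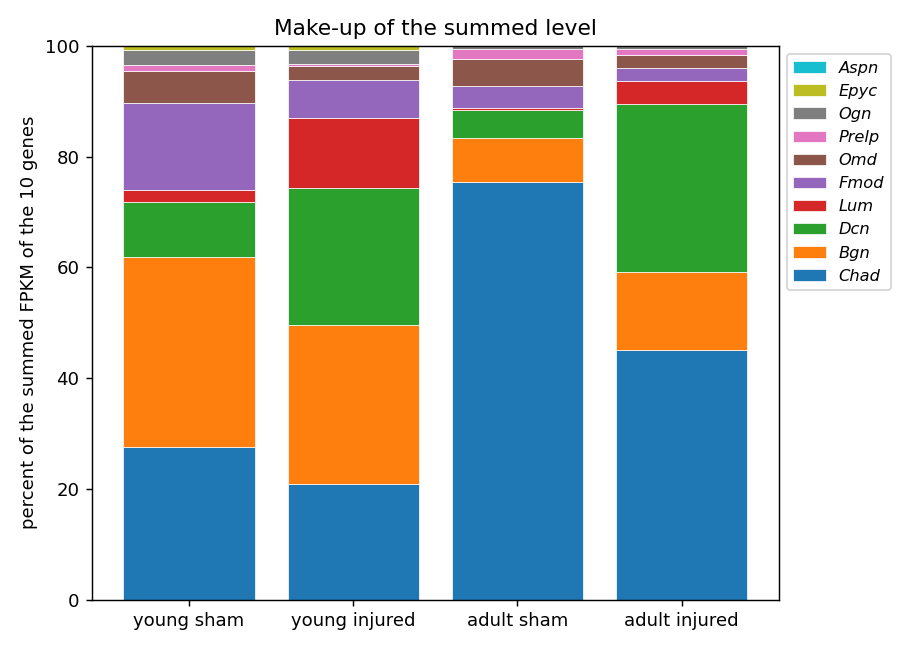
Share of each gene in the summed FPKM of the 10 members, in percent, with 1 stacked bar per library that adds up to 100. Chad fills 75.4% of the adult sham bar and 27.5% of the young sham bar, and Dcn and Lum together widen from 12.2% to 37.4% in young and from 5.59% to 34.4% in adult injured cartilage.

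Members that lie side by side did not share a pattern throughout. On chromosome 10, Dcn and Lum, 47.3 kb apart, both rose at both ages. Kera, the corneal keratan sulfate proteoglycan and next gene, was at no more than 0.836 FPKM in any library, and Epyc, 30.4 kb beyond it, was within 2-fold in young cartilage. On chromosome 1, Prelp and Fmod both fell at both ages, while Optc, 0.615 kb from Prelp, was at no more than 0.556 FPKM. On chromosome 13, Ecm2, a relative that is no member, was at 213, 75.4, 404 and 87.3 FPKM and fell at both ages (log2 ratios -1.49 and -2.20). Aspn, 11.7 kb beyond it, was at 0.91 and 0.31, Omd, 14.9 kb further, at -0.94 and -1.66, and Ogn, 15.4 kb from Omd, at -0.01 and -0.61. Cenpp overlaps Ecm2, Aspn, Omd and Ogn and was at 6.31, 6.69, 14.6 and 7.25 FPKM, a level near that of Aspn. Acsf2 overlaps Chad and was at no more than 13.6 FPKM. Whether fragments were assigned by strand is not stated, so for Aspn the share of fragments from Cenpp is uncertain. Of the 31-base words of the Omd transcript, 5.50% also occurred in other genes, against 0.422% or less for the other members.

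**Figure D5:**
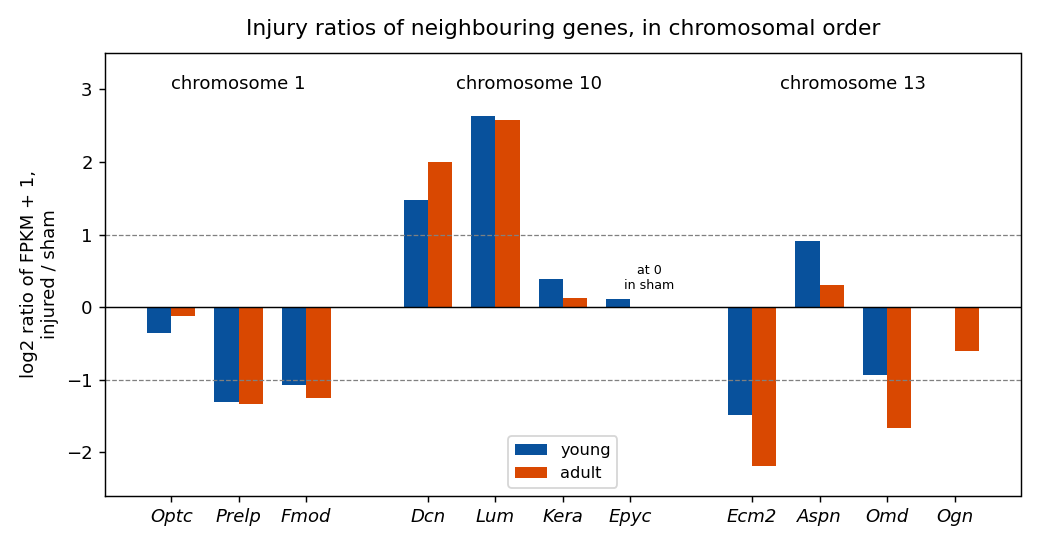
Log2 ratio of FPKM + 1 in injured over sham cartilage for neighbouring genes in their order on 3 chromosomes, with 1 bar for young and 1 for adult mice and dashed lines at 2-fold. The bars of Dcn and Lum lie above 1, those of Prelp, Fmod and Ecm2 below -1, and the adult bar of Epyc is missing because its sham value is listed at 0.

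Likeness of pattern was measured as the distance between 2 genes' log2(FPKM + 1) values over the 4 libraries after removal of each gene's mean, and 4 libraries allow only a description. Prelp and Chad were the most alike (0.82), followed by Bgn and Ogn (0.90) and Fmod and Ogn (0.99). The nearest gene to Omd was Prelp (1.22), to Dcn Aspn (1.298) and to Lum Dcn (1.84). Epyc was far from all others, with Ogn the nearest at 5.06.

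Of 8 other SLRPs and near relatives, Podnl1 rose and Ecm2 fell at both ages, and the other 6 were within 2-fold on the log2 scale in both injury comparisons, except that Tsku rose in adult cartilage with TPM. Without the added 1 FPKM, Kera was 2.03-fold (young) and 2.24-fold (adult) higher, Optc 2.65-fold lower in young and Tsku 2.09-fold higher in adult cartilage. Podnl1, podocan-like 1, was at 1.21, 6.07, 1.79 and 4.79 FPKM (log2 ratios 1.68 and 1.05), and its adult ratio was within 2-fold with median-of-ratios scaling and quantile normalization. Between the ages, Podn alone of this list passed 2-fold, lower in adult sham (-1.72) and higher in young injured cartilage (1.19), and Ecm2 also rose in adult sham cartilage with median-of-ratios scaling and quantile normalization.

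The chains of the members are built by glycosyltransferases and sulfotransferases. Of 21 genes of chondroitin and dermatan sulfate synthesis, 1 fell in young cartilage (2 with TPM), and 1 rose (2 with TPM) and 1 fell in adult cartilage. Among all genes, 4.57% rose and 1.27% fell in young cartilage, and 6.90% and 1.46% in adult cartilage. The gene that fell at both ages was Chst3, a chondroitin 6-O-sulfotransferase, at 35.8, 7.53, 31.3 and 6.60 FPKM (-2.11 and -2.09). Chsy1, a chondroitin synthase, rose in adult cartilage (1.11), though not with median-of-ratios scaling or quantile normalization. Of 9 genes of keratan sulfate synthesis, 1 rose in young cartilage (Chst1, 1.43) and 2 in adult cartilage (B4galt1, 1.10, and St3gal1, 1.17), the last 2 not with those same scalings, with which Chst5 fell in adult cartilage instead. With TPM, 4 of the 9 rose in adult cartilage, Chst2 and B3gnt7 being the additional genes. Chst1 and Chst5, sulfotransferases of keratan sulfate and related chains, rose in adult against young sham cartilage, Chst1 from 0.754 to 24.0 FPKM and Chst5 from 2.85 to 49.2 FPKM. B4galt4, a galactosyltransferase, fell there from 9.12 to 3.44 FPKM (-1.19), though not with median-of-ratios scaling or quantile normalization.

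Of 16 collagens of the fibrils that SLRPs coat, 1 rose in young cartilage (Col1a1, 1.60) and 6 rose in adult cartilage, among them Col1a1 (1.73), Col3a1 (1.76) and Col9a1 (1.95). The shares of all genes that rose were 4.57% in young and 6.90% in adult cartilage. The 6 became 3 with median-of-ratios scaling and 4 with quantile normalization. In adult against young sham cartilage 9 of 16 fell and none rose, with a median log2 ratio of -1.17, and Col2a1 went from 9349 to 3173 FPKM while Chad rose. The 9 were 7 and 8 with those scalings. Among all genes, 10.6% fell in that comparison, and 5.13% and 5.27% did with those scalings.

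Of 10 proteases that are known to cut SLRPs or related matrix proteins, 4 rose and 1 fell in young cartilage and 5 rose in adult cartilage. By comparison, 4.57% of all genes rose and 1.27% fell in young cartilage, and 6.90% rose in adult cartilage. Mmp13, collagenase 3, was at 25.3, 474, 21.2 and 518 FPKM (log2 ratios 4.17 and 4.55). Mmp3, stromelysin 1, was at 4.99, 152, 41.2 and 673 FPKM (4.67 and 3.997). Mmp9, a gelatinase, and Adamts4, an aggrecanase, also rose at both ages, and Mmp14 rose in adult cartilage. Tll1, which processes matrix precursors, fell in young cartilage (-1.95), and with quantile normalization in adult cartilage too.

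Of 14 receptors and ligands bound by members, 2 rose in young cartilage and 4 in adult cartilage (5 with TPM), and none fell. Cd44, a hyaluronan receptor, was at 5.51, 34.0, 5.43 and 29.0 FPKM (2.43 and 2.22). Cd14, a co-receptor of lipopolysaccharide bound by lumican and biglycan and also 1 of the 8 macrophage markers, was at 2.47, 21.6, 14.2 and 42.5 FPKM (2.70 and 1.52). Tgfb2 and Tlr4 rose in adult cartilage alone (1.24 and 1.09), Tgfb2 from 1.61 to 5.15 FPKM, but neither passed 2-fold with quantile normalization, nor Tlr4 with median-of-ratios scaling. P2rx7, a purinergic receptor, fell in adult cartilage with both of these scalings. Whether their injury ratios differ between the ages was not tested.

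The libraries differed in other ways that touch every ratio. The steps between low values of FPKM times transcript length correspond to between 25800000 and 30800000 fragments per library if a step is a single fragment. The 10 most abundant genes took 14.7, 17.5, 26.5 and 15.4% of all FPKM, the highest share being in adult sham cartilage, where Chad alone ranked 4. Among 10891 genes at 1 FPKM or more in every library, the injured over sham log2 ratios had medians of -0.04 (young) and 0.23 (adult), and the medians of the other comparisons were -0.30 (adult over young sham) and 0.07 (young over adult injured). Relative to those medians, the adult injury ratios of Lum and Dcn are lower and those of Fmod, Prelp, Omd and Chad further below. The labelled cell type is chondrocyte, but markers of other tissues were present. The sum of 8 muscle markers was 537.5, 538, 1171 and 364 FPKM, that of 7 erythroid markers 9674, 18440.1, 6955 and 3031 FPKM, that of 5 endothelial markers 14.4, 72.9, 16.5 and 60.6 FPKM and that of 5 adipocyte markers 54.8, 61.3, 69.4 and 43.6 FPKM, with Lep at 0 in 1 library. The part of these cells in the members' values was not tested.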

How the data were processed

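Dissected cartilage of 4 groups was sequenced as 1 pooled, poly-A selected, stranded library per group, with paired-end reads of 100 bases. The authors deposited FPKM per gene, which they had divided by transcript length and by mapped fragments, on mm10. The submitters' processing notes name HISAT2 2.1.0, HISAT, StringTie 1.3.4d, STAR and SAMtools, without their roles. No counts were used. Columns were matched to samples by name.

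Log2 ratios of FPKM + 1 were computed for 4 comparisons over all 24532 genes with Python 3.11.15, numpy 2.4.6 and pandas 2.3.3, and figures were drawn with matplotlib 3.10.9. A gene was called at 2-fold, and shares of called genes refer to the 18181 genes above 0 in a library. Scripts were tested on simulated data. The 10 members and all lists of related genes and cell type markers were chosen with earlier results of these data known. All members were named, and list genes were named where past 2-fold or most abundant, up to 4 a list, or where they made up a small count. Genes outside this rule, Tsku, P2rx7, B3gnt7, Chst2, Matn1, Matn3, Comp, Acan, Sox9, Ibsp, Kera, Optc and the overlapping Cenpp and Acsf2, were chosen after their values were seen or for their position. Alternatives were pseudocounts of 0.1 and 5 FPKM, a filter of 1 FPKM, quantile normalization, TPM, median-of-ratios scaling and limits of 1.5-fold and 3-fold. Positions and promoters came from RefSeq (GRCm38.p6). Protein sequences were not used here.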

Additional observations from a re-analysis of the deposited data

Results flagged for a closer look

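Bgn was the only member whose injury ratios had opposite signs at the 2 ages, among the 9 with a ratio at both ages. The log2 ratios were -0.09 (young) and 0.29 (adult), a young minus adult difference of -0.39. The difference was not tested, since each group is a single pool, and both ratios were within 2-fold. With median-of-ratios scaling the adult ratio was -0.05 and the young minus adult difference -0.06, and the 2 ages no longer differed in sign.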

How the results depend on the processing

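No paired analysis was possible because each group is 1 library. The 5 alternatives that can change a member's value, the pseudocounts and scalings, gave 190 ratios of single members, of which 179 neither reversed nor crossed the 2-fold limit, 6 passed it, 2 no longer did and 3 reversed. The filter of 1 FPKM changed no member's ratio, but it left 13209 genes and so raised the shares of all genes. With it, 6.28% rose and 1.74% fell with injury in young and 9.50% and 2.01% in adult cartilage. In adult against young sham cartilage 3.66% rose and 14.6% fell, and in young against adult injured cartilage 4.25% and 2.48%. Among the 179, the young injury ratios of Bgn and Epyc became exactly 0 with quantile normalization. The 3 that reversed were Epyc for injury in young cartilage with TPM (-0.0106) and Bgn (-0.0460) and Aspn (-0.000482) for injury in adult cartilage with median-of-ratios scaling. The young minus adult difference reversed with TPM for Fmod (-0.0328), Lum (-0.16) and Prelp (-0.20) and with quantile normalization for Lum (-0.0746) and Chad (-0.13). The median of the members, with Epyc counted by its pseudocount, moved to -0.17 for injury in young and -0.28 for young against adult injured cartilage with TPM. With median-of-ratios scaling it moved to -0.50 for injury in adult and -0.22 for young against adult injured cartilage and reversed to 0.38 for adult against young sham cartilage. With quantile normalization it reversed to 0.0188 for injury in adult and 0.14 for adult against young sham cartilage. At 1.5-fold, 5 members fell in adult against young sham cartilage (25.1% of all genes fell), and 4 rose and 4 fell in young against adult injured cartilage (9.78% and 5.51% of all genes). At 3-fold, 1 rose and 0 fell with injury in young cartilage (2.02% and 0.270%), 1 fell with injury in adult cartilage (0.462%), 2 rose in adult against young sham cartilage (1.01%) and 1 rose in young against adult injured cartilage (1.03%).

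Over all genes, 1255 rose and 266 fell with injury in adult cartilage, against 2009 and 310 with TPM, 802 and 527 with median-of-ratios scaling and 725 and 489 with quantile normalization. In adult against young sham cartilage 484 rose and 1934 fell, against 609 and 2707, 1065 and 932, and 916 and 959 with the same scalings. In young against adult injured cartilage 561 rose and 328 fell, against 619 and 625 with TPM. With injury in young cartilage 830 rose and 230 fell, against 973 and 430 with TPM. The share of all genes past 2-fold depended on the pseudocount, and with 0.1 and 5 FPKM 9.99% and 1.89% rose and 4.22% and 0.435% fell with injury in young, and 15.9% and 2.39% rose and 3.61% and 0.704% fell with injury in adult cartilage. In adult against young sham cartilage 5.72% and 1.24% rose and 21.1% and 3.69% fell, and in young against adult injured cartilage 8.27% and 1.16% rose and 4.64% and 0.787% fell. The cause of these shifts was not tested. Quantile normalization keeps the order of genes within a library, so it cannot change the order of the members by level. With it, the injury ratios of Lum to Fmod were 12.0 in young and 16.1 in adult cartilage. Those of Dcn to Bgn were 3.51 and 4.44, an alternative chosen after seeing the data. Without replicates, none of these values has an error, and low levels such as those of Aspn and adult Epyc depend most on the pseudocount.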
